A study of Mus musculus with 7 samples.

Results

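Metallothioneins are small cysteine-rich proteins that bind zinc and copper. The 3 genes described here, Mt1 (ENSMUSG00000031765), Mt2 (ENSMUSG00000031762) and Mt3 (ENSMUSG00000031760), were taken by symbol from the 31053 genes of the deposited matrices. They were chosen by measured values of these same data, the higher Mt1 level of neurons at later days, so the neuronal values below are a description with no test. Single-cell RNA was counted with 10x 3' v2 chemistry in primary cultures of hippocampus taken from newborn (P0) mice, dissociated with trypsin and grown on poly-D-lysine in a medium with transferrin, B-27 and serum. The cultures were sampled after 1, 3, 5 and 7 days in vitro (DIV), with 1 library on DIV1 and 2 libraries at each later day. The labels name no genotype, strain or treatment, and every library came from the same culture protocol, so the days differ by age in culture alone as far as the labels go. Nothing in the labels says whether the 2 libraries of a day come from separate cultures or animals, and the spread behind each p-value may therefore be technical only.

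Mt1 and Mt2 are the widely expressed, inducible members of the family. Free zinc activates the transcription factor MTF-1, which binds metal response elements in their promoters, and glucocorticoids, cytokines and oxidants also raise them. Mt3 was described as a growth inhibitory factor of brain and is made mainly in the nervous system, by astrocytes and, in zinc-rich regions such as the hippocampus, by some neurons. In the adult brain Mt1 and Mt2 are known mainly from astrocytes, ependyma and vessels, and rise there after injury. Mt4, the fourth member, belongs to stratified epithelia.

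The 3 genes lie side by side on chromosome 8 on the plus strand. Their upstream sequences are shown because the members moved together below and because the metal response element is the best known control of the family. Each run is the 250 bases before the annotated start in RefSeq (GRCm38.p6; the deposited counts were made against another build, mm9, so these positions are not those of the count files). Capitals mark each match to the core of the metal response element, searched as TGCACNC or TGCGCNC on both strands.
Mt1, chr8:94178839-94179088: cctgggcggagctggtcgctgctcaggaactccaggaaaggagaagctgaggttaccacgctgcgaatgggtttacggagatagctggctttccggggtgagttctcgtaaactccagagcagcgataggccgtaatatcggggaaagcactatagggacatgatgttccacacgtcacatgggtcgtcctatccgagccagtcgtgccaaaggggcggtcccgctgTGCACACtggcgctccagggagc
Mt2, chr8:94172368-94172617: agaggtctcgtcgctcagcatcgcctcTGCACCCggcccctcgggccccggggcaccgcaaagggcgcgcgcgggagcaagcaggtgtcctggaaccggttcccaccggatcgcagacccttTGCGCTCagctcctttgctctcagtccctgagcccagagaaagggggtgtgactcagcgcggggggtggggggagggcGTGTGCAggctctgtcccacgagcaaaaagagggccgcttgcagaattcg
Mt3, chr8:94152357-94152606: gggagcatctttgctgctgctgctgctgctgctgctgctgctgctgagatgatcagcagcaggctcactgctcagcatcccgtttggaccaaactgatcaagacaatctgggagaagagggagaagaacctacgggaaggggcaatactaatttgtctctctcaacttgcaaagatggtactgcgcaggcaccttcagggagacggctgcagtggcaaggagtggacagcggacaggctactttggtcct
In the upstream part Mt1 held 1 match, Mt2 held 3 and Mt3 held 0. Over the whole RefSeq window of 300 bases, which runs 50 bases past the start, the counts were 3, 4 and 1. The other matches of Mt1 lie 2 and 20 bases past its start. The counts thus depend on where the start is annotated, and bases outside the window were not searched. Of 32851 such windows of all genes, 25.7% held at least 1 match, 1.97% held at least 3 and 0.517% held at least 4. The letters TTCNNNGAA of a STAT site had no match in the 3 windows (8.30% of all windows had one), and TGACNNNGC, the core of the antioxidant response element, matched once in Mt2, apart from its metal response elements, and in neither other member (12.4% of all windows). A match is a run of letters and not a measured binding site.

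The 7 libraries held 3009 to 5401 barcodes and 36226566 to 114119537 unique molecular identifiers (UMIs, each counting 1 captured transcript). Of 28846 barcodes 26709 passed the limits of 500 detected genes and 10% UMIs of mitochondrial genes, and 26532 were left once called doublets had been taken out. Any pair of libraries shared 10 to 34 barcodes, at most 0.846% of the smaller library. Cells were clustered without the 3 members, and classes were named from marker genes: 4028 glutamatergic neuron-like, 466 GABAergic neuron-like, 9077 radial glia or astrocyte-like, 2206 ciliated (ependymal)-like and 940 microglia or macrophage-like cells, besides smaller classes. In each library all 12 glutamatergic, all 12 GABAergic and all 18 radial glia or astrocyte markers were above 0 in the summed counts of the class they name. The classes were named from these same markers, so this is no separate check of the names. All 18 radial glia or astrocyte markers were also above 0 in the glutamatergic neuron-like cells of each library. The libraries stood apart within a class. In the radial glia or astrocyte-like class, 94.5% of the cells of DIV3 replicate 1 fell in a cluster led by Lcn2 and interferon genes, 79.7% of those of DIV3 replicate 2 in a cluster led by Wisp2 and Igfbp3, 65.5% of those of DIV7 replicate 1 in one led by Cox6b2 and Neat1, and 60.5% of those of DIV7 replicate 2 in one led by Glycam1 and Slc1a2. A level below is in CPM, the usual scale on which the summed UMIs of every class in every library are brought to the same total, without correction for gene length, since a 3' UMI counts a transcript once whatever its length.

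Mt1 was most abundant in radial glia or astrocyte-like and ciliated cells and was higher there at each later day. In radial glia or astrocyte-like cells its level was 885 CPM in the DIV1 library, 7610.2 and 7929.5 in the DIV3 libraries, 15173 and 17054.5 in the DIV5 libraries and 20191 and 32059 in the DIV7 libraries. Each later day lay above the earlier one with no overlap, and DIV7 replicate 2 was the highest of all. Mt1 rose between DIV3 and DIV7 by 1.65 ± 0.30 (log2 ± SE, 2 libraries a day; edgeR quasi-likelihood test, Benjamini-Hochberg adjusted p = 0.0252).

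Mt2 stood at 1091 CPM on DIV1, 6003 and 6067 on DIV3, 10680.5 and 12081 on DIV5, and 10965 and 19083 on DIV7 in the same cells. Its DIV7 libraries lay above both DIV3 libraries but overlapped those of DIV5. The change of 1.22 ± 0.33 did not pass the test (edgeR adjusted p = 0.0511), while it did so with the replicate number as a block (1.16, adjusted p = 0.0338). Mt3 stood at 1319.8, 4139.7 and 8435, 7748 and 8725, and 8605 and 13405 CPM on the 4 days. The 2 DIV3 libraries of Mt3 differed about as much as the days did, and the change of 0.72 ± 0.38 had an edgeR adjusted p of 0.224, against 0.0489 with the block (0.75).

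Thus 1 of the 3 members passed the test in radial glia or astrocyte-like cells, where 14.6% of the 14612 genes tested were called in either direction, 6.82% higher on DIV7 and 7.79% lower. With the block, 4073 genes were called in place of 2135. The call of Mt1 ended when DIV3 replicate 1 was left out (log2 change 1.69, edgeR adjusted p = 0.114), and likewise for DIV3 replicate 2 (1.60, adjusted p = 0.0682) and DIV7 replicate 2 (1.20, adjusted p = 0.0918). Each such fit leaves 1 library on a day, which is then assumed to vary like the others. The changes of the members were not tested against each other.

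Because different clusters filled this class on different days, the members were also read within single clusters. In the Wisp2 and Igfbp3 cluster Mt1 was at 8295 CPM in DIV3 replicate 2 (657 cells), 14149 and 11268 in the DIV5 libraries, and 23042 and 16282 in the DIV7 libraries (97 and 44 cells). Mt2 in that cluster was at 6283 CPM in the DIV3 library and at 13058.5 and 13001 on DIV7. Mt3 was at 8857 CPM and then at 11566 and 11755. The order of the days for Mt1 was the same within this cluster, picked after its values were seen, as over the class, with 1 library on DIV3. The cluster led by Hes5 and Vgf, which held 98.6% of the class on DIV1, did not follow it, with Mt1 at 865 CPM on DIV1, 2001 and 4469 on DIV3 (64 and 110 cells) and 3682 and 3787 on DIV5 (25 and 42 cells). On DIV7 the Glycam1 and Slc1a2 cluster held more Mt1 than the Wisp2 and Igfbp3 cluster, with 30946 and 36267 CPM.

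Ciliated cells, the ependymal cells that line the ventricles, held the members at levels close to those of radial glia or astrocytes. Mt1 was at 2524 CPM on DIV1, 7345 and 10571 on DIV3, 15732 and 16669 on DIV5, and 18972 and 26168 on DIV7. No 2 days overlapped. Mt1 rose by 1.27 ± 0.25 between DIV3 and DIV7 (edgeR adjusted p = 0.00892), and Mt2, at 4057.6 and 6229 CPM on DIV3 and 9395 and 14954 on DIV7, rose by 1.18 ± 0.29 (edgeR adjusted p = 0.0196). Mt3, at 4452 and 8523 CPM and then 7940.1 and 11219.5, overlapped between the days and did not pass (0.51 ± 0.30, edgeR adjusted p = 0.265). In this class 16.9% of 13006 genes were called, 8.55% higher on DIV7 and 8.33% lower, and with the block 3824 genes were called in place of 2196.

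Both ciliated calls ended without DIV3 replicate 1 (Mt1 1.09, adjusted p = 0.104; Mt2 0.96, 0.179) and without DIV7 replicate 2 (Mt1 0.98, 0.0725; Mt2 0.77, 0.169). That DIV3 library had 97.6% of its ciliated cells in a cluster led by Crip1 and Pvalb, as had 88.5% of those of DIV1, while that cluster held 21.1% of them in DIV3 replicate 2 and at most 1.12% in any DIV5 or DIV7 library. The change of Mt3 passed the test without DIV3 replicate 2 (0.99, adjusted p = 0.0488) and with a stricter filter on cells (1.37, 0.00567).

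**Figure D1:**
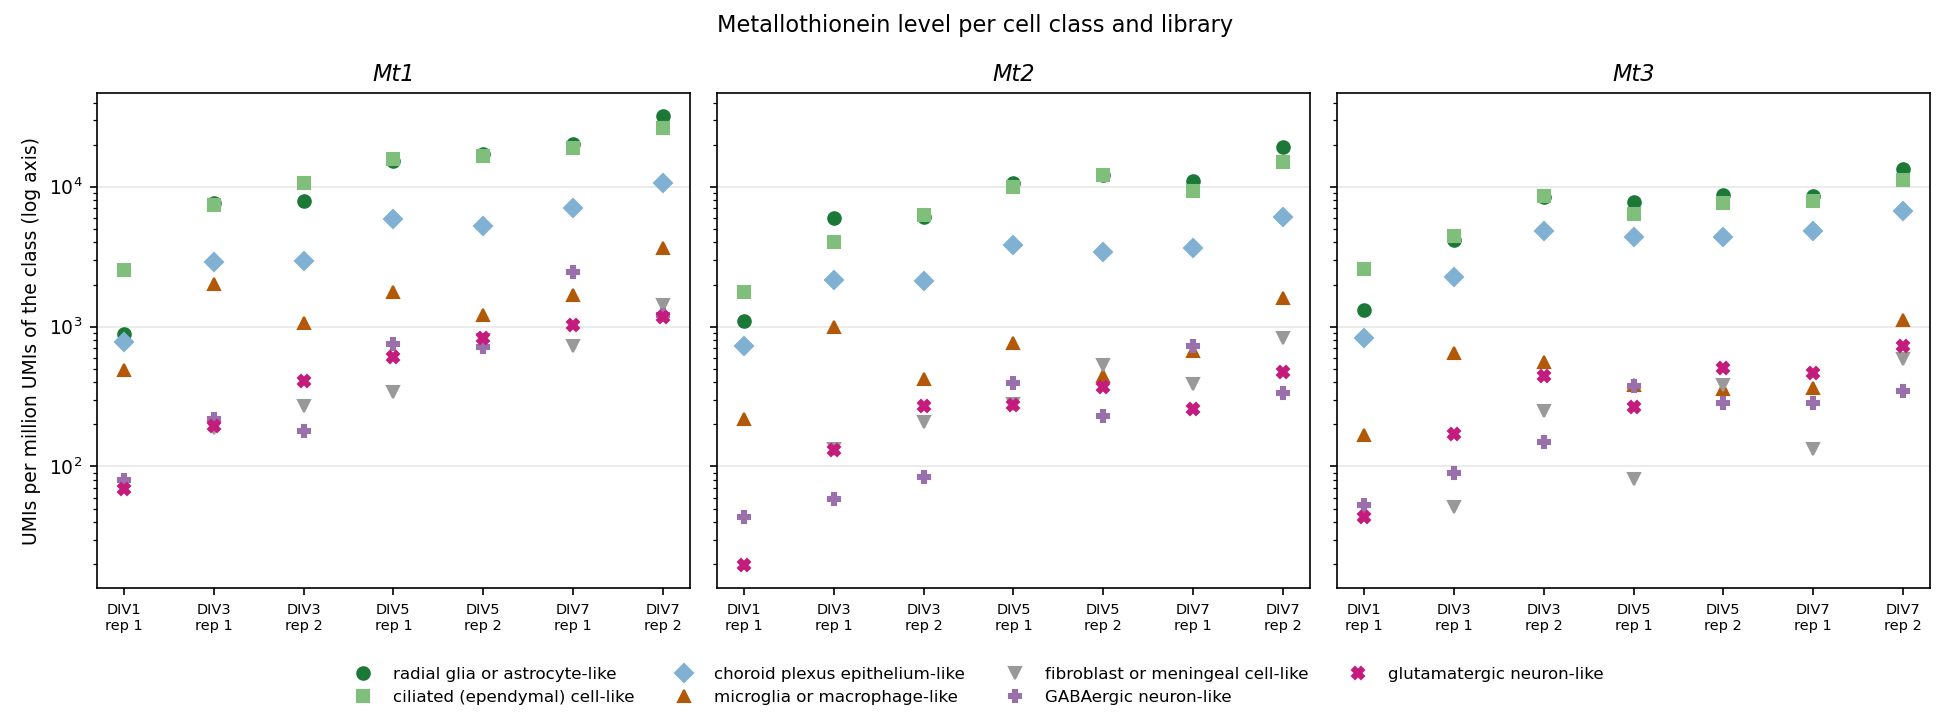
Level of Mt1, Mt2 and Mt3 (left, middle, right) in CPM of the class on a log axis, for 7 cell classes in each of the 7 libraries; each point is 1 class in 1 library, without an error bar. Radial glia or astrocyte-like and ciliated cells sit on top in each panel, and for Mt1 they run from 885 and 2524 CPM on DIV1 to 32059 and 26168 in DIV7 replicate 2, while the highest neuronal value is 2463 CPM in GABAergic neuron-like cells.

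Together the 3 members made up a growing part of the RNA of these cells. In radial glia or astrocyte-like cells they held 0.330% of all UMIs on DIV1, 1.78% and 2.24% on DIV3, 3.36% and 3.79% on DIV5, and 3.98% and 6.45% on DIV7. In ciliated cells they held 0.687% on DIV1 and 3.63% and 5.23% on DIV7. The mix of the members also shifted. Mt1 was 26.8% of their UMIs in radial glia or astrocyte-like cells on DIV1, below Mt3 at 40.0% and Mt2 at 33.1%, and was 50.8% and 49.7% on DIV7, where Mt3 was 21.6% and 20.8%.

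Choroid plexus epithelium-like cells, which secrete cerebrospinal fluid in the brain, came next among the named classes that do not divide. Their Mt1 was at 772 CPM on DIV1, 2906 and 2939 on DIV3, 5844 and 5264 on DIV5, and 7078 and 10604 on DIV7. The level in radial glia or astrocyte-like cells was 1.15 to 3.24 times that, higher in 7 of 7 libraries. Of the 10 choroid plexus markers 6 to 10 were detected in this class, and their summed level ran from 818 CPM in DIV5 replicate 1 to 11810 on DIV1. The glial reference genes described below stood in this class at a median of 51.7% to 87.9% of the radial glia or astrocyte-like level. The part of glial cells or glial RNA in its Mt1 was not tested. Against ciliated cells, Mt1 in radial glia or astrocyte-like cells was higher in 4 of 7 libraries (0.350 to 1.23 times). These 2 classes cannot be ordered beyond the spread of the libraries.

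Microglia or macrophage-like cells, the immune cells of the culture, held less of every member. Mt1 was at 493 CPM on DIV1, 2032 and 1068 on DIV3, 1780.4 and 1216 on DIV5, and 1682 and 3640.2 on DIV7. The days overlapped, and none of the 3 changes passed (Mt1 0.83 ± 0.45, Mt2 0.74 ± 0.56 and Mt3 0.35 ± 0.48, edgeR adjusted p = 0.380, 0.533 and 0.746). In this class edgeR called 0% of 10819 genes, with 1949 genes at an unadjusted p under 0.05, and DESeq2 called 172. Without DIV7 replicate 2 the sign of Mt2 and Mt3 turned (-0.086 and -0.73).

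Fibroblast or meningeal cell-like cells, which come from the coverings of the brain, were as poor in Mt1 as neurons. Their level was 189 and 273 CPM on DIV3, 341 and 800.4 on DIV5, and 732 and 1438 on DIV7. Radial glia or astrocyte-like cells exceeded them 21.3 to 44.5 times in the 6 libraries with enough of these cells. For Mt3 the gap was 22.9 to 95.8 times, with 51.4 to 585 CPM in fibroblasts. Ranked by the median over libraries, Mt1 went down from ciliated (15732 CPM) and radial glia or astrocyte-like cells (15173) through cycling (8066), unnamed (6206), choroid plexus (5264), microglia, oligodendrocyte lineage and intermediate progenitor-like cells to GABAergic, endothelial (1 library), glutamatergic, Cajal-Retzius and fibroblast-like cells, and the last 5 overlapped over their libraries. The unnamed cells are a mix of clusters and ran from 73.0 to 23980.2 CPM. In DIV7 replicate 1 they stood at 22357 CPM, above radial glia or astrocyte-like and ciliated cells.

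In glutamatergic neuron-like cells Mt1 was low at first and was higher at each later day. Its level was 69.0 CPM on DIV1 (820 UMIs, exact Poisson 95% interval 64.3 to 73.8, counting error only), 194 and 407 on DIV3, 602 and 829.8 on DIV5, and 1033 and 1176 on DIV7. No 2 days overlapped. The difference between DIV3 and DIV7 was 1.86 ± 0.33 (log2 ± SE), beside 1.65 ± 0.30 in radial glia or astrocyte-like cells. Leaving out DIV3 replicate 1 gave 1.45, leaving out DIV3 replicate 2 gave 2.47, and removing the cells of highest doublet score gave 2.59.

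Mt2 in these neurons was at 19.6 CPM on DIV1, 131 and 269 on DIV3, 277 and 370.4 on DIV5, and 259 and 475 on DIV7. The DIV3 and DIV7 libraries overlapped, and the difference was 0.86 ± 0.40. Leaving out DIV7 replicate 2 gave 0.36, and leaving out the DIV3 libraries in turn gave 0.45 and 1.44. Mt3, the member known from neurons, was at 43.5 CPM on DIV1, 170.0 and 445 on DIV3, 268 and 505 on DIV5, and 466 and 723 on DIV7, a difference of 0.94 ± 0.55. That difference was 0.59 when DIV7 replicate 2 was left out, and 0.42 and 1.77 when DIV3 replicates 1 and 2 were. The 2 DIV3 libraries thus stood far apart for each member, with replicate 2 the higher. In this contrast 6.72% of 13220 genes were called, 4.46% higher on DIV7 and 2.27% lower, which is given as background only because the contrast chose the members.

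GABAergic neuron-like cells, the inhibitory neurons, also held more Mt1 at each later day, from fewer cells (25 to 186 a library). Mt1 was at 80.7 CPM on DIV1, 219 and 179 on DIV3, 754 and 711 on DIV5, and 2463 and 1214 on DIV7. The difference between DIV3 and DIV7 was 3.32 ± 0.31 for Mt1, 3.03 ± 0.40 for Mt2 and 1.52 ± 0.31 for Mt3, with 28 and 29 cells in the DIV3 libraries. Each was larger than in glutamatergic neuron-like cells (1.86, 0.86 and 0.94), and the 2 classes were not tested against each other. DIV7 replicate 1 stood above the rest for Mt1 and, at 731 CPM, for Mt2, but not for Mt3, at 284 CPM beside 373 in DIV5 replicate 1.

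**Figure D2:**
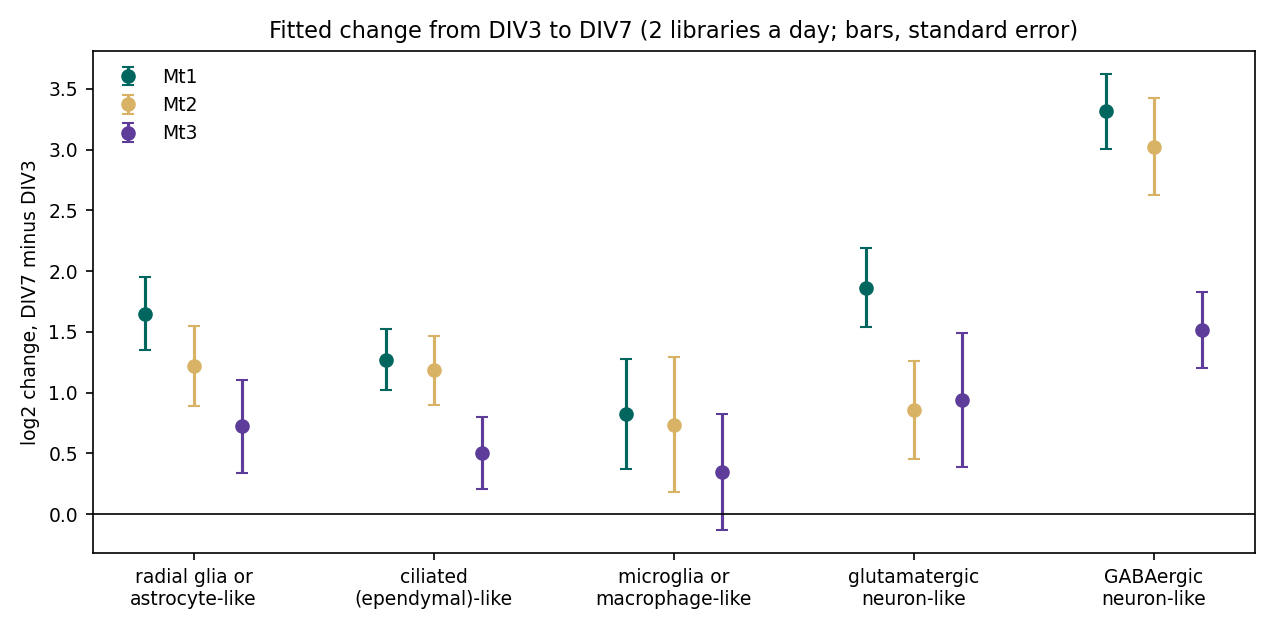
Fitted log2 change of Mt1, Mt2 and Mt3 from DIV3 to DIV7 in 5 cell classes, with the standard error as bars and 2 libraries a day. All 15 estimates lie above 0, from 0.35 for Mt3 in microglia or macrophage-like cells to 3.32 for Mt1 in GABAergic neuron-like cells; the neuronal estimates are a description without a test.

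Radial glia or astrocyte-like cells held 12.8 to 39.2 times the Mt1 level of glutamatergic neuron-like cells, 22.6 to 55.7 times the Mt2 level and 17.3 to 30.4 times the Mt3 level, and were higher in 7 of 7 libraries for each member. Put the other way, neurons held Mt1 at 7.80% of the glial level of their own library on DIV1, 2.55% and 5.13% on DIV3, 3.97% and 4.87% on DIV5, and 5.11% and 3.67% on DIV7. From DIV3 on this percent had no order by day in all glutamatergic neuron-like cells: both DIV7 values lay between the 2 DIV3 values. Mt2 stood at 1.796% on DIV1, 2.18% and 4.43% on DIV3 and 2.36% and 2.49% on DIV7, and Mt3 at 3.29%, at 4.11% and 5.28%, and at 5.41% and 5.39%. For Mt3 both DIV7 percents lay above both DIV3 percents, by little. The overlap for Mt1 depended on the cells used. With the cells of highest doublet score removed, Mt1 stood at 2.09% and 1.68% on DIV3 and 4.65% and 2.71% on DIV7, with no overlap. In GABAergic neuron-like cells it stood at 2.87% and 2.26% on DIV3 and 12.2% and 3.79% on DIV7, again with no overlap.

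The same percent was taken for reference genes that mark glia, from a list of 28, of which 22 to 26 reached 50 CPM in glia in a given library. Their median in glutamatergic neuron-like cells was 6.11% on DIV1, 5.62% and 11.0% on DIV3, 4.28% and 6.61% on DIV5, and 3.86% and 6.02% on DIV7. Mt1 lay below that median in 5 of 7 libraries, Mt3 in 6 of 7 and Mt2 in 7 of 7. The ratio of the percent of Mt1 to that median ran from 0.455 in DIV3 replicate 1 to 1.33 in DIV7 replicate 1. The list is broad: the water channel Aqp4 stood at 0.513% to 3.90% and was the lowest gene on DIV1, while the glutamate transporter Slc1a2 reached 176% in DIV3 replicate 2 and the transcription factor Sox9 82.4%. Glutamatergic neurons are known to make some Slc1a2 RNA, so such a list does not hold RNA of glia alone. It also holds all 18 markers that named the radial glia or astrocyte-like class. The assignment of cells to classes thus drew on genes of the list but not on the members.

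Mt1 was above 12 of 23 of these genes on DIV1, 0 of 22 and 4 of 23 on DIV3, 11 of 23 and 10 of 24 on DIV5, and 16 of 24 and 5 of 26 on DIV7. In the neuronal sums of the 28 reference genes, both DIV7 libraries lay above both DIV3 libraries for 10, below for 5 and overlapped for 13. With 2 libraries a day, genes also part in either direction by spread alone. How many of all genes part in this way was not counted, so these counts are no result about the list. The 6.72% of all genes called by edgeR in this contrast is another measure and no comparison for these counts. Gfap, the astrocyte filament protein, went from 9.50 CPM on DIV1 to 77.2 and 91.3 on DIV3 and 178 and 636 on DIV7 in glutamatergic neuron-like cells, and Aqp4 from 0.420 to 28.9 and 62.2 on DIV7. Vim, the filament protein of radial glia and many other immature cells, went the other way, with 224 CPM on DIV1, 227 and 251 on DIV3, and 51.8 and 78.4 on DIV7. The summed level of all 18 radial glia or astrocyte markers in these neurons, none of them at 0 in any library, was 509.7 CPM on DIV1, 526 and 999 on DIV3, 721 and 1585 on DIV5, and 817 and 1827 on DIV7. In the other direction, the middle neuronal reference gene stood in glia at 0.788% to 3.25% of its neuronal level. The part of glial RNA in the neuronal Mt1 was not tested.

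**Figure D3:**
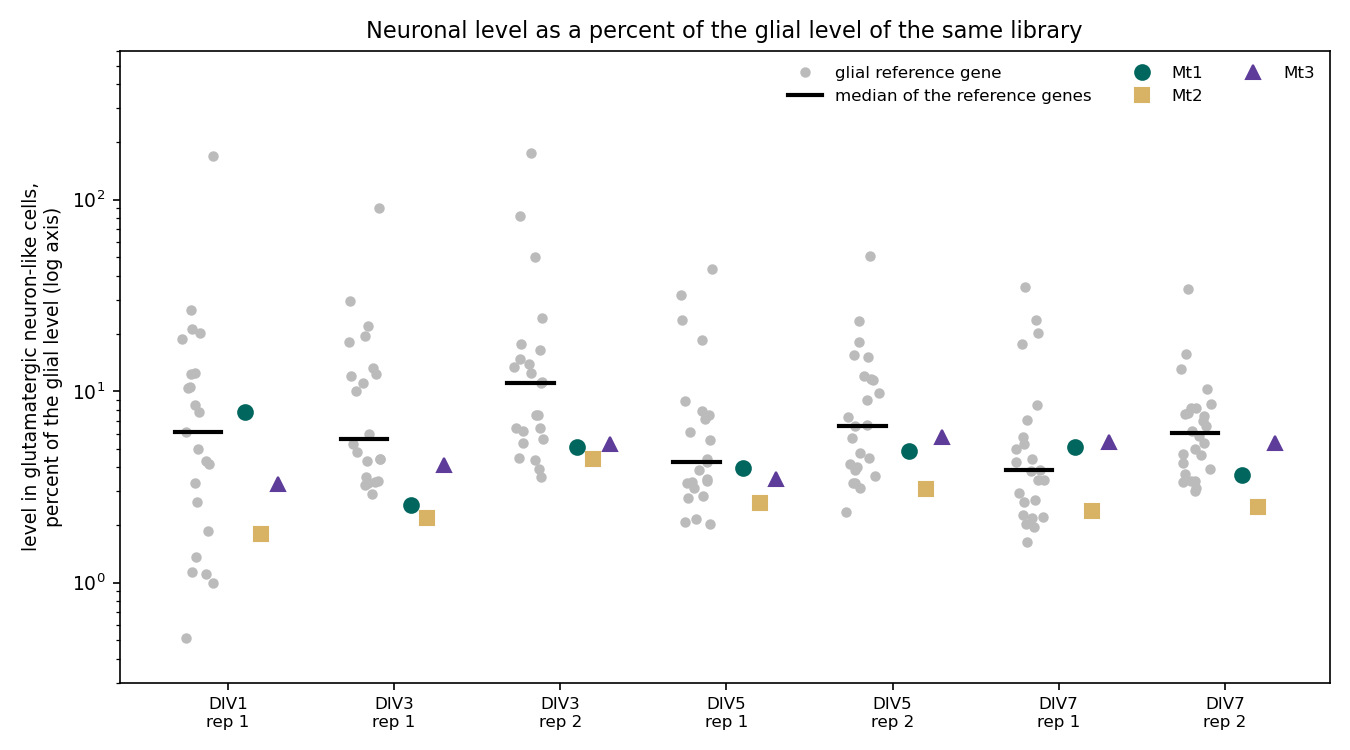
Level in glutamatergic neuron-like cells as a percent of the radial glia or astrocyte-like level of the same library, on a log axis; grey points are glial reference genes, the black line their median, and coloured marks the 3 members. Mt1 lies at 2.55% to 7.80% and Mt2 at 1.796% to 4.43%, and in DIV3 replicate 1 both lie below every grey point.

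Changing which cells count as neurons moved the percents. In the neurons that had 0 UMIs of 7 glial genes, Mt1 was at 27.4 CPM on DIV1 (599 cells), 119 and 114 on DIV3 (52 and 54 cells), 392 and 319 on DIV5 (65 and 31 cells) and 1233 in DIV7 replicate 1 (13 cells, 86 UMIs, exact Poisson 95% interval 986 to 1523). The neurons with at least 1 such UMI had 83.9 CPM on DIV1, 198 and 429 on DIV3, 618 and 838 on DIV5, and 1029 in DIV7 replicate 1. Mt1 was thus lower without glial UMIs in the 5 libraries up to DIV5, and in DIV7 replicate 1 the interval of the 13 cells held the value of the others. DIV7 replicate 2 had 1 such cell and is not used. These cells are also shallower (a median of 7903 UMIs against 14058 in DIV3 replicate 1), so the choice of cells with 0 glial UMIs also went by depth. The CPM themselves are scaled to total UMIs.

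As a percent of glia, Mt1 in the neurons without glial UMIs had a median of 1.87% over the 5 libraries with at least 20 such cells, Mt2 0.799% and Mt3 3.09%. By day, Mt1 stood at 3.10% on DIV1, 1.56% and 1.44% on DIV3, and 2.59% and 1.87% on DIV5. Both DIV5 values of Mt1 lay above both DIV3 values, while those of Mt2 and Mt3 overlapped. No DIV7 library had enough of these cells. The reference genes give no comparison here, since these cells were chosen for 0 UMIs of 7 of them. Removing the cells of highest doublet score gave medians of 3.00%, 1.54% and 3.53%, and the neuronal Mt1 level was then 160 and 133 CPM on DIV3 and 939 and 870 on DIV7. The gap between the 2 DIV3 libraries closed, with 133 in place of 407 in replicate 2.

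The ratio of Mt1 to Mt2 UMIs differed between classes, and for neurons it is a description only, since their Mt1 chose the members. Glutamatergic neuron-like cells had 3.52 Mt1 UMIs per Mt2 UMI on DIV1, 1.48 and 1.51 on DIV3, 2.18 and 2.24 on DIV5, and 3.99 and 2.47 on DIV7. Radial glia or astrocyte-like cells had 0.811, 1.27 and 1.31, 1.42 and 1.41, and 1.84 and 1.68. The neuronal ratio was the higher one in 7 of 7 libraries. Among the other choices of cells tried, it was higher in 6 of 7 libraries when neurons came only from the 2 clusters shared by all DIV3 and DIV7 libraries, and in each library under the rest.

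Among the neurons with 0 glial UMIs the ratio was 1.70 to 3.79 in the 5 libraries up to DIV5 and 5.06 in the 13 cells of DIV7 replicate 1. GABAergic neuron-like cells had 1.84 to 3.71 Mt1 UMIs per Mt2 UMI, and Cajal-Retzius cell-like cells 1.64 to 2.68. Classes were set beside radial glia or astrocyte-like cells by exact binomial 95% intervals of the share of Mt1 among both, which cover counting error only. By these the ratio was higher in glutamatergic neuron-like cells in 7 of 7 libraries and in GABAergic neuron-like cells in 6 of 7. It was higher in the neurons with 0 glial UMIs in 5 of 7, the library with 1 such cell included, and in Cajal-Retzius cell-like cells in 2 of 4. A ratio above that of radial glia or astrocyte-like cells was not particular to neurons. It was higher in microglia or macrophage-like cells (2.04 to 2.76) in 7 of 7 libraries. It was higher in ciliated cells (1.36 to 2.02) in 6 of 7 and lower in 1, and higher in choroid plexus epithelium-like cells in 6 of 7. In oligodendrocyte lineage-like cells it was higher in 3 of 6 and lower in 1, and in endothelial cell-like cells higher in 1 of 1. Other classes went the other way. The ratio was lower in intermediate progenitor or neuroblast-like cells in 4 of 4 and in cycling cells in 4 of 6. In unnamed cells it was lower in 6 of 7 and higher in 1. Fibroblast or meningeal cell-like cells, with about the same Mt1 level as neurons, had 1.22 to 1.88, above in 2 of 6 libraries and below in 1.

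**Figure D4:**
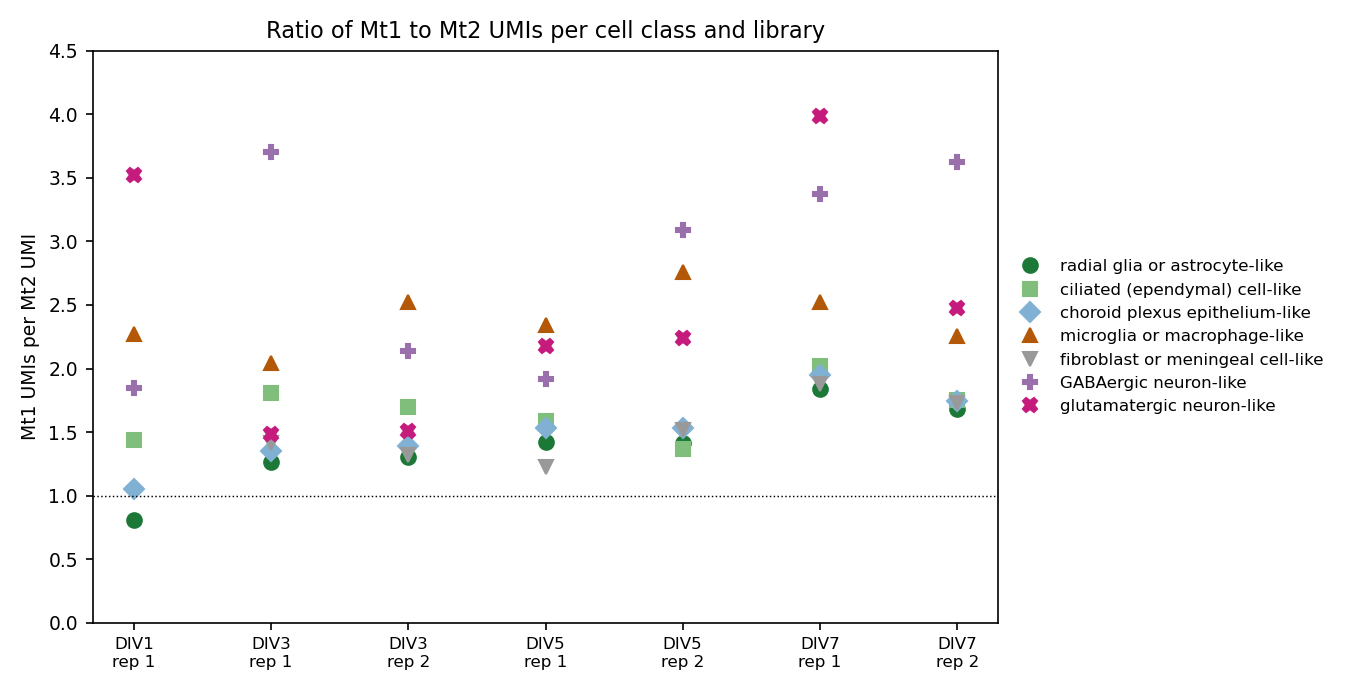
Mt1 UMIs per Mt2 UMI in 7 cell classes and 7 libraries; the dotted line marks equal counts. In each library glutamatergic neuron-like cells (1.48 to 3.99) lie above radial glia or astrocyte-like cells (0.811 to 1.84), as do ciliated cells (1.36 to 2.02) in 6 of 7 libraries and microglia or macrophage-like cells (2.04 to 2.76) in 7 of 7.

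The share of neurons with a Mt1 UMI was larger at later days. With each cell thinned to 3000 UMIs, and 13 to 187 shallower neurons a library left out, 11.3% of glutamatergic neuron-like cells had a Mt1 UMI on DIV1, 25.4% and 28.1% on DIV3, 54.9% and 56.1% on DIV5, and 79.3% and 75.3% on DIV7. Without thinning the shares were 19.8%, 70.8% and 59.8%, 85.3% and 80.6%, and 97.5% and 100%. No class in these cultures is known to lack Mt1 or Mt2, so fibroblast or meningeal cell-like cells, the class of lowest median Mt1, stand beside them: 39.6% and 29.5% had a Mt1 UMI on DIV3, 58.7% and 37.5% on DIV5, and 76.3% and 78.9% on DIV7. The neuronal share was above theirs in DIV5 replicate 2 and in DIV7 replicate 1, where the difference was small, and below in the other 4 libraries. Median depths before thinning were 5868 to 18862 UMIs in these neurons and 15926 to 46914.5 in fibroblasts.

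The median neuron held 0 Mt1 UMIs of 3000 on DIV1 and DIV3, 1 on DIV5 and 2 on DIV7. The median radial glia or astrocyte-like cell held 2 on DIV1, 18 and 20 on DIV3, 39 and 48 on DIV5, and 52 and 90 on DIV7, and at least 98.8% of these cells had a Mt1 UMI from DIV3 on. For Mt2, the neuronal share went from 4.00% on DIV1 to 44.7% and 50.6% on DIV7, and for Mt3 from 9.71% to 60.5% and 65.4%. Fibroblasts are not known for Mt3, and their Mt3 shares ran from 12.3% in DIV3 replicate 1 to 45.5% in DIV7 replicate 2, below those of neurons in 6 of 6 libraries (31.2% and 65.4% in these same libraries). For Mt2 the order was the other way, with 25.2% to 60.6% of fibroblasts and lower neuronal shares in 6 of 6.

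**Figure D5:**
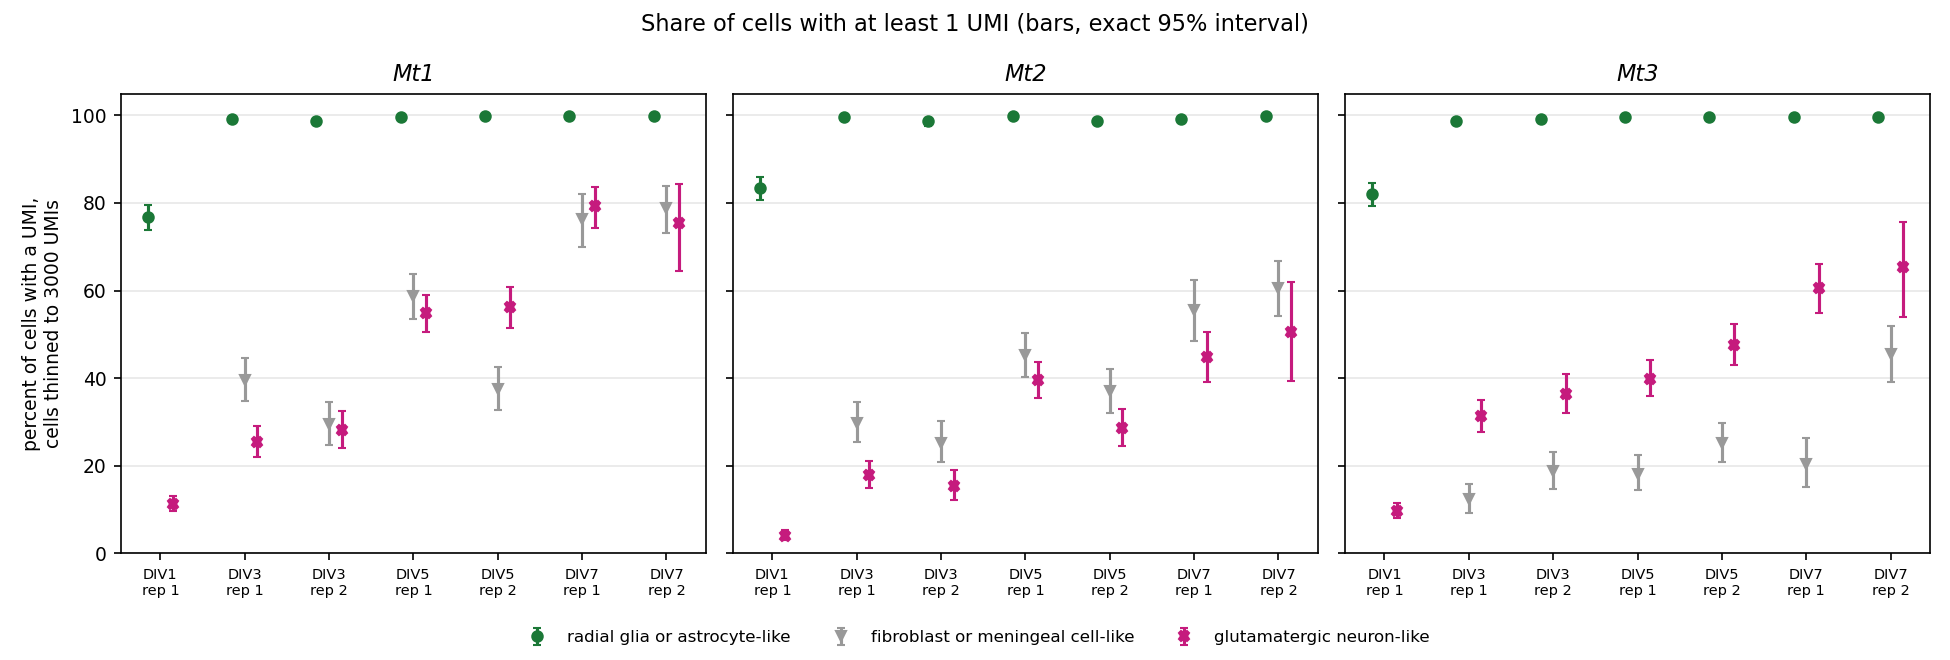
Percent of cells with at least 1 UMI of each member after thinning every cell to 3000 UMIs, for radial glia or astrocyte-like, fibroblast or meningeal cell-like and glutamatergic neuron-like cells; bars are exact binomial 95% intervals, which cover counting error only. For Mt1 the neurons climb from 11.3% on DIV1 to 79.3% and 75.3% on DIV7, next to 76.3% and 78.9% of fibroblasts.

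Neurons of different clusters differed in Mt1, and the days were filled by different clusters. Of the glutamatergic neuron-like cells of DIV1 87.9% fell in a cluster led by Grp and Neurod6, which held 4.33% and 19.4% of them on DIV3 and 3.77% and 12.4% on DIV7. Within it Mt1 was at 67.2 CPM on DIV1, 123 and 98.5 on DIV3 (28 and 93 cells) and 229 in DIV5 replicate 2, a smaller step from DIV1 to DIV3 than over the class. The cluster led by Npas4 and Rprml held 559 and 466 CPM of Mt1 on DIV3 (25 and 218 cells), 662 and 657 on DIV5, and 779 and 1151 on DIV7. The cluster led by Nrgn and Kcna1 held 120 and 819 CPM on DIV3, 487 and 2008 on DIV5, and 1666 and 1106 on DIV7. On DIV3 and DIV5 the libraries of a day lay closer together in the Npas4 cluster than in the Nrgn cluster. A cluster led by Cck, which held 59.2% of the glutamatergic neuron-like cells of DIV3 replicate 1, had 177 and 49.2 CPM on DIV3. With only the Npas4 and the Nrgn cluster, which all DIV3 and DIV7 libraries share, the difference of Mt1 between DIV3 and DIV7 was 1.54 and that of Mt2 0.40.

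Over the 69 class and library sums the 3 members ran together, with Pearson's r of 0.975 between Mt1 and Mt2, 0.934 between Mt1 and Mt3 and 0.954 between Mt2 and Mt3, on log2(CPM + 1). These sums share libraries and classes, so the values are a description. Among 6447 genes with a mean of at least 20 CPM, the 5 most like Mt1 were Mlc1, a membrane protein of astrocyte endfeet (r = 0.944), Aqp4 (0.940), Gfap (0.934), the ferric reductase Cybrd1 (0.924) and the glutamine transporter Slc38a3 (0.905). The same 5 led for Mt2, in another order. For Mt3 they were Mlc1 (0.930), Igsf11, Hepacam, Slc38a3 and the potassium channel Kcnj10 (0.909).

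Genes of zinc handling were read from the same test of radial glia or astrocyte-like cells. Of 25 listed zinc transporters and sensors 19 were tested, 4 rose and 0 fell between DIV3 and DIV7, where 6.82% of all genes tested rose and 7.79% fell. Their median change was 0.58 beside 0.05 over all genes. Slc30a1 (ZnT1), the zinc exporter that shares MTF-1 control with Mt1 and Mt2, went from 15.1 and 21.2 CPM to 45.6 and 43.5 and rose by 1.19 ± 0.22 (edgeR adjusted p = 0.0256). Slc39a12 (ZIP12), a zinc importer of brain, went from 10.2 and 25.3 CPM to 82.8 and 91.7 and rose by 2.22 ± 0.40 (edgeR adjusted p = 0.0249). Slc30a4 and Slc39a1 rose by 1.27 each. Mtf1 itself stood at 25.0 and 29.0 CPM on DIV3 and 26.0 and 19.9 on DIV7 (-0.36 ± 0.21, edgeR adjusted p = 0.266).

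In glutamatergic neuron-like cells, where Mt1 was higher at each later day, Slc30a1 was at 5.18 to 10.5 CPM over the 7 libraries and had no order by day, with 6.23 and 7.59 on DIV3 and 9.31 and 5.18 on DIV7. Such levels rest on few UMIs, since the sum of DIV7 replicate 2 held 1543135 UMIs of all genes. No counting interval was taken, so an order by day could be missed. Mtf1 was at 18.8 to 34.1 CPM in these neurons, highest on DIV1.

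The counts of the other lists stand against the same shares of all genes, 6.82% that rose and 7.79% that fell. Of 15 copper genes tested 1 rose, the metalloreductase Steap3 (3.23), and 1 fell, Commd1 (-1.43), with a median of -0.04, which is about those shares. Of 15 glucocorticoid-responsive genes 3 rose, Fam107a (4.94), the kinase Sgk1 (2.17) and Errfi1, and 0 fell, with a median of 0.86. Of 16 genes of the STAT3 and acute-phase response 5 rose and 0 fell (median 1.22), among them the oncostatin M receptor Osmr (2.47), Cebpb (2.57), Gfap (2.55) and complement C4b (2.73). Of 17 NRF2 and antioxidant genes 1 rose, Gclc (1.31), the enzyme that limits glutathione synthesis, and 0 fell, again about the share of all genes. Of 13 hypoxia-responsive genes 2 rose, Ndrg1 (2.55) and Slc2a1 (0.92), and 0 fell. Of the 28 glial reference genes 9 rose and 0 fell, with a median of 1.42, among them Mlc1 (1.92), Gfap, Aqp4 (2.01) and Gja1 (2.52). The log2 change of Mt1 in the same cells, 1.65, was thus within the range of these astrocyte genes, and that of Mt3, 0.72, was below their median. When DIV3 replicate 1 was left out, edgeR called 0 genes in this class, with 3514 genes at an unadjusted p under 0.05, and when DIV7 replicate 2 was left out it called 10.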

How the data were processed

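UMI counts per gene and cell barcode were deposited as 1 integer matrix a library, with no normalization. Per the submitters' processing notes Cell Ranger 4.0.0 and mm9 were used, and per the file headers the software version was 3.0.2. All else was computed from these counts. The mitochondrial limit took out 1.00% to 15.8% of barcodes, most in DIV7 replicate 1. Scrublet called 0.663% of cells as doublets (0.078% to 1.44% a library, below the expected 2.41% to 4.32%). Removing the cells of highest score up to the expected share was therefore an alternative. That cut marked 879 cells, and it was set over all scored cells, called doublets included. Clustering (Scanpy 1.11.5, 2000 variable genes less the members, 30 components, 15 neighbours, Leiden resolution 1) gave 29 clusters. They were named from marker lists under thresholds set after the clusters were seen, and 2367 cells stayed unnamed. Counts were summed per class and library (at least 20 cells) and fitted with edgeR 4.0.16 (TMM, robust quasi-likelihood, a mean per day over 7 libraries, 3 residual degrees of freedom, two-sided, called at a Benjamini-Hochberg adjusted p under 0.05). CPM use total counts. The test was tried on simulated data. DESeq2 1.42.0, scalings, filters, thinning, clusterings, cell choices, the replicate block and leaving out each library were alternatives. Same-numbered libraries correlated in their deviations at 0.118 to 0.659 in radial glia or astrocyte-like and at 0.146 to 0.397 in ciliated cells. The range was 0.148 to 0.345 in glutamatergic neuron-like and -0.008 to 0.176 in microglia or macrophage-like cells. The main fits did not use the replicate numbers as pairs. The replicate block was an alternative, fitted without the DIV1 library. Members' last 300 transcript bases share identical runs of 17 to 27 bases at most. The members and gene lists were chosen with earlier results of these data known. Genes named beside the members are the 5 most correlated with each, called genes of each list by smallest p (up to 4), Mtf1, Slc30a1 and the reference genes of lowest and highest percent. The neuronal levels of Gfap, Aqp4 and Vim and the single clusters were picked after their values were seen.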

Additional observations from a re-analysis of the deposited data

Results flagged for a closer look

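Mt4, the family member outside the 3 described, had few UMIs in the matrices: 39 were counted over the class sums of all libraries, above the 3 counts that a count of 0 allows, with no control samples to set beside it. Whether they are misassigned reads of the other members was not tested, and Mt4 was left out of the comparison of transcript bases. The libraries held 0 on DIV1, 10 and 3 on DIV3, 6 and 3 on DIV5, and 9 and 8 on DIV7, which is at most 0.233 CPM of a library.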

How the results depend on the processing

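The log2 changes of Mt1 and Mt2 in radial glia or astrocyte-like and ciliated cells and of the 3 members in glutamatergic neuron-like cells were above 0 under every alternative run, those without 1 library included. Mt2 in radial glia or astrocyte-like cells passed the edgeR threshold, or that of DESeq2, with DESeq2 (1.22, adjusted p = 0.00574), total counts in place of TMM (1.32, 0.0347), no filter on low counts (1.20, 0.000764), the replicate block (1.16, 0.0338), doublets kept (1.22, 0.0480), stricter limits on cells (1.15, 0.0384) and thinned cells (1.24, 0.0365). Total counts moved the median of all genes there from 0.05 to 0.17. With the replicate block Mt3 passed there too (0.75), and it passed in ciliated cells with stricter limits (1.37); the block changed no other call of a member.

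Leaving out 1 library gave 1.20 to 2.00 for Mt1 and 0.68 to 1.61 for Mt2 in radial glia or astrocyte-like cells, 0.98 to 1.54, 0.77 to 1.54 and 0.16 to 0.99 for Mt1, Mt2 and Mt3 in ciliated cells, -0.086 to 1.46 for Mt2 and -0.73 to 0.94 for Mt3 in microglia or macrophage-like cells, and 1.45 to 2.47, 0.36 to 1.44 and 0.42 to 1.77 in glutamatergic neuron-like cells. In these neurons Mt1, Mt2 and Mt3 were 2.59, 1.85 and 1.61 with the highest doublet scores removed. Thinned cells gave 2.37 for Mt1 and 1.33 for Mt2, and shared clusters 1.54 and 0.40. The cause was not tested.

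The median neuronal percent of the glial level for Mt1, Mt2 and Mt3 was 1.87, 0.799 and 3.09 in neurons without glial UMIs. The middle reference gene was at 1.96 there by construction, since these cells hold 0 UMIs of 7 of those genes, and is no comparison. With all non-neuronal cells as source the members were at 7.28, 3.66 and 7.55 and the middle reference gene at 9.20. For the 3 members it was 3.00, 1.54 and 3.53 with the highest doublet scores removed, and for Mt3 it was 4.06 in thinned cells and 4.13 at the finer clustering.

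Counts of called genes depended on single libraries. In radial glia or astrocyte-like cells edgeR called 0 genes without DIV3 replicate 1 (3514 at an unadjusted p under 0.05), 10 without DIV7 replicate 2 and 315 without DIV7 replicate 1. In ciliated cells these were 141, 502 and 730. The count was 3864 without a filter on low counts and 1229 with stricter limits in the former, and 1337 with DESeq2, 822 with stricter limits and 885 in thinned cells in the latter. In microglia or macrophage-like cells it was 918 without a filter, 298 without DIV3 replicate 2 and 4 with the replicate block. Depth limits what single neurons show, since the median neuron held 0 Mt1 UMIs of 3000 on DIV1 and DIV3.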

Other observations

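Oligodendrocyte lineage-like cells held Mt1 at 246 CPM on DIV1, 1852 and 1419 on DIV3, 2021 and 1270.0 on DIV5, and 3147 in DIV7 replicate 2, the 1 DIV7 library with enough of these cells. Radial glia or astrocyte-like cells held 3.60 to 13.4 times as much. Cycling cells held Mt1 at 4515 to 13776 CPM over 6 libraries, below radial glia or astrocyte-like cells in 6 of 6. In the DIV1 library endothelial cell-like cells, which were too few at later days, held Mt1 at 666 CPM and Mt3 at 80.1.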
